A study of Mus musculus with 768 samples.

Results

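Microtubules are built from pairs of alpha and beta tubulin, and mammals carry several genes for each. The 10 genes described here are the beta tubulin genes Tubb2a, Tubb2b, Tubb3, Tubb4a, Tubb4b, Tubb5 and Tubb6 and the alpha tubulin genes Tuba1a, Tuba1b and Tuba4a, chosen by name from the 32679 genes of the count table. Single cells were sorted for green fluorescence from the dentate gyrus of 8 male Nestin:GFP mice, whose reporter follows the regulatory elements of the neural progenitor gene nestin, and were sequenced by Smart-seq2, a full-length method that does not keep the strand. In 4 mice (mice 1, 3, 5 and 7) a control oligonucleotide had been injected, and in the other 4 (mice 2, 4, 6 and 8) a mimic of the microRNA miR-132. Both groups received 150 pmol in lipofectamine once a week for 5 weeks, so the transfection reagent, the surgery and the reporter are common to all animals, and the labels give an age of 2 months. Sorting took place on 17 April for the mice numbered 1 to 4 and on 19 April for the rest, and each day held 2 mice of each treatment. Although the title of the series names Alzheimer's disease and its design text puts AD before the tissue, the labels list no disease allele, and none is assumed here.

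Tubulin isotypes share a conserved globular body and differ mostly in the short acidic tail at the C-terminus, which lies on the outside of the microtubule and is where motors, microtubule-associated proteins and modifying enzymes act. Tubb3 is widely used to mark newborn neurons, Tubb5, Tubb2a, Tubb2b and Tuba1a are abundant in the developing brain, Tubb4a is the beta tubulin of myelinating oligodendrocytes, Tubb4b is broadly expressed and is used in cilia, and Tubb6 is low in brain. Mutations of several of these genes cause human brain disorders, among them TUBB4A in hypomyelination with atrophy of the basal ganglia and cerebellum.

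The count table holds 96 wells per mouse. Of 768 wells, 675 had at least 50000 counts and 1000 genes, 16 of these held over 6000 genes and were set aside, and 659 wells, each taken as 1 cell, were clustered without the tubulin and other microtubule genes. By their marker genes the clusters fell into 8 classes, all of them named with "like" because the names rest on RNA only: 302 oligodendrocyte-like, 107 endothelial-like, 95 astrocyte-like, 70 pericyte-like, 38 neuroblast-like and 18 oligodendrocyte precursor-like cells, with 13 of smooth muscle-like and 16 of fibroblast-like type. Each mouse gave 73 to 90 cells. The reporter itself was not measured here; Nes, the nestin gene, averaged 379 ± 119 CPM (counts scaled to the same total in every cell; SD, n = 8 mice) in pericyte-like cells and 19.3 ± 3.37 in oligodendrocyte-like cells, where 30 of 302 cells reached 50 CPM. The title and the description of the deposited samples place wells in mice in different ways, and the description is used; the maps give the same mouse for 96 wells and the same treatment for 384. The labels give 94 sorted cells per mouse, and under the description map the 16 wells of many genes lie 2 in each of the 8 mice. Summed counts were 42428800 to 65027554 per mouse, and the median kept well had 646537 counts and 2741 genes. Of the 93 wells not kept, 64 had a tubulin count. No doublet caller was run.

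The tails can be read at the end of each coding sequence. The last 60 coding bases of 7 of the genes are printed 5′ to 3′ from the GENCODE M21 annotation of GRCm38 (mm10), lower case with the stop codon in capitals, because they show how far the isotypes differ where the proteins differ most and which pairs short reads can hardly tell apart.
Tubb5: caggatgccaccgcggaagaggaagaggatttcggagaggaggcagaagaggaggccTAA
Tubb4a: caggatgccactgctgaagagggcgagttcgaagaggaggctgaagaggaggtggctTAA
Tubb4b: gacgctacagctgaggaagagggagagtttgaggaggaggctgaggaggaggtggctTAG
Tubb2a: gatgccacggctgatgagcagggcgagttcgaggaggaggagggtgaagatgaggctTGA
Tubb2b: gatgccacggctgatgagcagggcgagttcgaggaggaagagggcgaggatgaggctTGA
Tubb3: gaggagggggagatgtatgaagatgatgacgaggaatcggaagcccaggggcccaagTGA
Tuba4a: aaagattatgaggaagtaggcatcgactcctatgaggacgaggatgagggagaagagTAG

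These runs lie in single exons, at chr17:35834982-35835041 (minus strand) for Tubb5, chr17:57080690-57080749 (minus) for Tubb4a, chr2:25222308-25222367 (minus) for Tubb4b, chr13:34074468-34074527 (minus) for Tubb2a, chr13:34127471-34127530 (minus) for Tubb2b and chr8:123421623-123421682 (plus) for Tubb3. The run of the alpha gene Tuba4a lies at chr1:75215622-75215681 (minus). Of the 19 codons before the stop, Tubb4b has 10 glutamate codons (gaa or gag), Tubb4a and Tubb5 have 9, Tubb2a and Tubb2b have 8, and Tubb3 and Tuba4a have 7. The last codon before the stop is gag, for glutamate, in Tuba4a, which therefore lacks the terminal tyrosine that vasohibins remove from other alpha tubulins and tubulin tyrosine ligase restores. Tubb3 ends on aag, for lysine, and the other printed beta runs on an alanine codon.

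Tubb2a and Tubb2b differ at 3 of these 60 bases and are 96.5% identical over the coding sequence. The coding sequences of Tuba1a and Tuba1b are 98.3% identical, whereas no pair but these 2 exceeds 85.7%. Of the 75-base stretches of each gene's principal annotated transcript, 100% are found in no other gene's annotated transcripts for Tubb3, Tubb4a, Tubb5 and Tubb6, against 67.8% for Tubb2b, 59.1% for Tubb4b, 56.8% for Tubb2a, 52.8% for Tuba4a, 29.6% for Tuba1a and 21.7% for Tuba1b. The sources used here do not say how reads of shared stretches were counted, so the levels of Tuba1a and Tuba1b, and to a lesser degree of Tubb2a and Tubb2b, are uncertain relative to other genes. Tubb4b overlaps Fam166a, Tuba4a overlaps Stk16, Tuba1a overlaps Gm49450, and Tuba1b overlaps Gm41396 and Gm49450; the library type cannot separate their reads.

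The plot of levels by class shows each tubulin gene across the 8 classes. Levels below are means over mice of the mean CPM per cell in each mouse with at least 2 cells of the class, and compare 1 gene between classes. Comparisons between genes use CPM per kb of exon, counted in each gene's principal annotated transcript and not over all its exons.

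**Figure D1:**
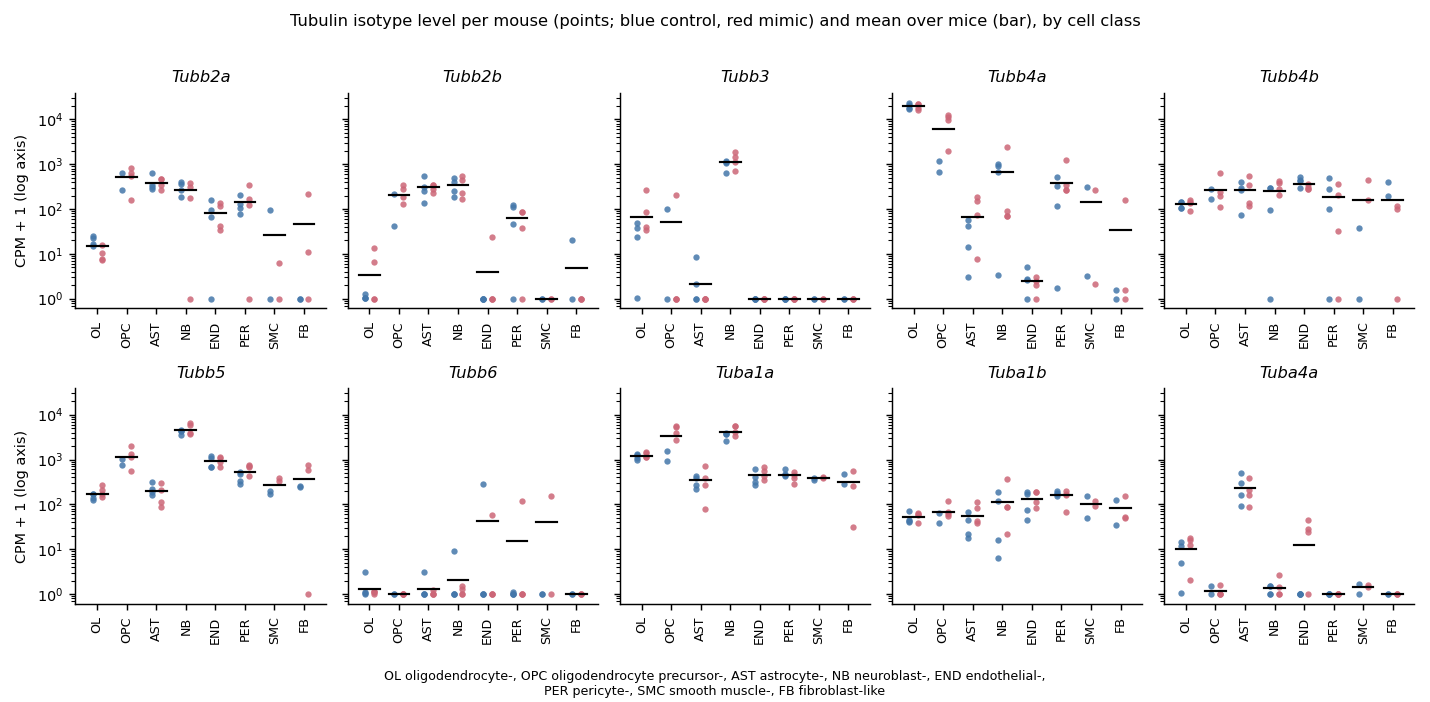
Mean CPM of each tubulin gene in each mouse (points, blue for control and red for mimic; log axis) and the mean over mice (bars) in 8 cell classes. Tubb4a is highest in oligodendrocyte-like cells, Tubb5, Tubb3 and Tuba1a in neuroblast-like cells and Tuba4a in astrocyte-like cells, while Tubb6 is near 0 in most mice.

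Tubb4a, the beta tubulin of oligodendrocytes, was the leading tubulin of the most numerous class. Its level in oligodendrocyte-like cells was 19648 ± 2606 CPM (SD, n = 8 mice), with 16397 in the lowest mouse, 19381 at the median and 23365 in the highest. All 8 mice therefore lay close together, and a count was present in 300 of 302 cells. By mean CPM it was the gene at rank 4 of all 32679 in these cells. Oligodendrocyte precursor-like cells had 6186 ± 5487 CPM (n = 6 mice), with a range of 674 to 12631, and in each of the 6 mice the oligodendrocyte-like level was the higher. That precursor-like mean is carried by 3 of the 18 cells, at 20706 to 25261 CPM, which had no Pdgfra; the 12 cells with Pdgfra had a median of 685 CPM. Neuroblast-like cells had 652 ± 809 CPM (2.34 in the lowest mouse, 385 at the median, 2371 in the highest) and pericyte-like cells 385 ± 377 (0.699, 295 and 1234), so mice within either class spanned more than the gap between them. Astrocyte-like cells had 65.4 ± 66.4 CPM. Endothelial-like cells had 1.49 ± 1.31 CPM, from 0 to 4.12 over mice, and none of their 107 cells reached 50 CPM, a count that allows a share of up to 2.80% of cells (counting error only).

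Tubb5, the broadly expressed beta tubulin also called class I, was highest in neuroblast-like cells. The level there was 4616 ± 1087 CPM (n = 8; lowest mouse 3548, median 4254, highest 6565), and all 38 cells reached 50 CPM. Precursor-like cells followed at 1142 ± 496 (n = 6; 564 to 1971), and no mouse of that class reached the lowest neuroblast-like mouse. Endothelial-like cells had 928 ± 223 CPM (664, 983 and 1207) and pericyte-like cells 525 ± 182 (277, 502 and 760). Astrocyte-like cells (197 ± 78.5; 85.4, 195 and 308) and oligodendrocyte-like cells (173 ± 46.4; 124, 166 and 271) stood at the bottom of the order and overlapped each other.

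Tubb3, the neuronal class III beta tubulin, was at 1144 ± 394 CPM in neuroblast-like cells (n = 8; 621, 1135 and 1877), where 35 of 38 cells had a count. All 8 mice were above every mouse of the next class in the order, oligodendrocyte-like cells, whose level was 65.6 ± 81.6 CPM (0.0465, 37.8 and 259) with a count in 65 of 302 cells. It was also at 49.7 ± 83.7 CPM in precursor-like cells and in 2 astrocyte-like cells. No endothelial-like, pericyte-like, smooth muscle-like or fibroblast-like cell had a Tubb3 count. A count of 0 there allows shares of cells of up to 2.80%, 4.29%, 23.1% and 18.8%, which cover counting error only.

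The near-identical pair Tubb2a and Tubb2b, abundant in developing brain, had the same 3 highest classes in a different order, with pericyte-like cells next for both. Tubb2a was at 511 ± 249 CPM in precursor-like cells (n = 6; 158 to 811), 388 ± 123 in astrocyte-like cells (n = 8; 263, 344 and 622) and 259 ± 134 in neuroblast-like cells (0, 288 and 395), and no neighbours among these classes were apart by more than their spread. In oligodendrocyte-like cells it was at 14.0 ± 6.36 CPM (6.18, 14.5 and 23.4), with a count in 26 of 302 cells. Tubb2b was at 340 ± 152 CPM in neuroblast-like cells (162, 331 and 554), 303 ± 117 in astrocyte-like cells (138, 296 and 538) and 201 ± 109 in precursor-like cells, and at 2.32 ± 4.54 in oligodendrocyte-like cells. At the low end the pair parted in endothelial-like cells, with Tubb2a at 80.9 ± 55.8 CPM and Tubb2b at 2.84 CPM, from a count in 1 of 107 cells.

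Tubb4b, the broad and ciliary isotype, varied least in level between classes among the beta genes with counts in every class. It ran from 127 ± 24.1 CPM in oligodendrocyte-like cells to 362 ± 93.3 in endothelial-like cells (273, 332 and 528), and no neighbours in its order of 8 classes had every mouse of one above every mouse of the other. Tubb6 was nearly silent. Its 41.7 CPM in endothelial-like cells came from 2 of 107 cells, at 746 and 4977 CPM, its 38.7 in smooth muscle-like cells from 1 cell and its 14.6 in pericyte-like cells from 1 cell, and it was at 0 in all precursor-like and fibroblast-like cells.

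Tuba1a, the alpha tubulin of growing neurons, was at 4058 ± 1068 CPM in neuroblast-like cells (n = 8; 2630, 3774 and 5718), 3343 ± 1946 in precursor-like cells (n = 6; 917 to 5624) and 1219 ± 173 in oligodendrocyte-like cells (980, 1204 and 1444). The first of these overlapped the second, while every oligodendrocyte-like mouse was above every mouse of the next class, endothelial-like cells at 455 ± 147 (273, 421 and 668). Pericyte-like, smooth muscle-like, astrocyte-like and fibroblast-like cells had 454, 377, 344 and 316 CPM. Tuba1b, which has the smallest share of unshared sequence, ran from 51.8 ± 12.9 CPM in oligodendrocyte-like cells to 162 ± 42.0 in pericyte-like cells, with every pair of neighbours overlapping.

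Tuba4a, the alpha tubulin without a tyrosine codon before its stop, was highest in astrocyte-like cells, at 233 ± 145 CPM (n = 8; 86.1, 182 and 492) with a count in 37 of 95 cells. The next class was endothelial-like at 11.7 ± 17.2 CPM, and every astrocyte-like mouse was above every endothelial-like mouse. Oligodendrocyte-like cells had 9.09 ± 6.49 CPM, neuroblast-like, precursor-like and smooth muscle-like cells under 1 CPM, and pericyte-like and fibroblast-like cells 0.

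The composition of the tubulin pool therefore differed between classes, which the plot of shares by mouse shows. Summed over the 10 genes, the level was 21311 ± 2566 CPM in oligodendrocyte-like cells, or 2.13% of their counts, 11768 ± 7835 in precursor-like cells, 11428 ± 1650 in neuroblast-like cells, and from 1008 in fibroblast-like to 2015 in endothelial-like cells. Of the summed CPM per kb, Tubb4a made up 90.6 ± 1.84% in oligodendrocyte-like cells (87.2 to 93.4% over 8 mice), followed by Tuba1a at 7.04 ± 1.21%. In precursor-like cells Tubb4a had 39.3 ± 18.3% and Tuba1a 34.6 ± 8.51%. Neuroblast-like cells had 41.0 ± 6.22% Tuba1a, 32.3 ± 6.40% Tubb5 and 11.2 ± 3.03% Tubb3. Astrocyte-like cells had 25.3 ± 5.17% Tubb2a, 18.7 ± 6.17% Tuba1a, 17.6 ± 9.29% Tubb4b, 15.2 ± 6.44% Tubb2b and 9.28 ± 6.42% Tuba4a. Endothelial-like cells had 35.6 ± 6.31% Tubb5, 25.3 ± 5.47% Tuba1a and 23.8 ± 8.79% Tubb4b, and pericyte-like cells 28.1 ± 9.88% Tuba1a, 21.1 ± 6.82% Tubb5 and 16.3 ± 12.6% Tubb4a.

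**Figure D2:**
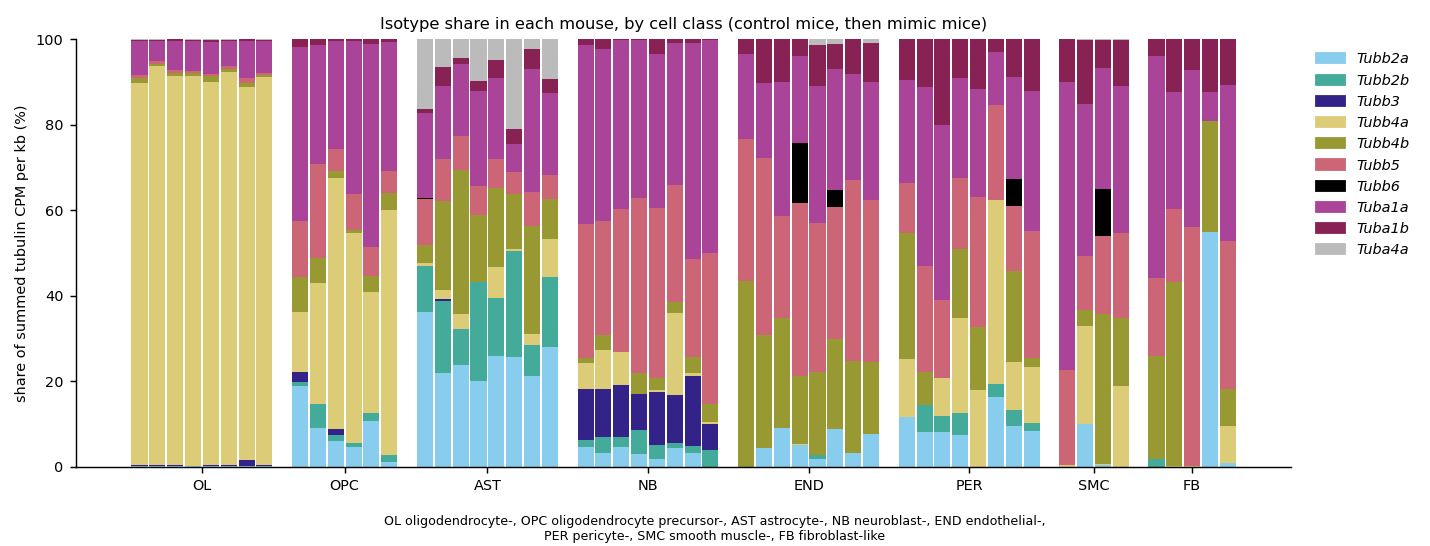
Share of each tubulin gene in the summed CPM per kb of exon (y axis, percent), 1 column per mouse, grouped by cell class with control mice before mimic mice. Tubb4a fills 87.2 to 93.4% of every oligodendrocyte-like column, and no gene reaches such a share in the neuroblast-like, astrocyte-like, endothelial-like or pericyte-like columns.

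The length used matters to these shares. Divided by the length of unshared 75-base stretches in place of the exon length, Tuba1a rose in weight: Tubb4a had 76.4 ± 3.62% and Tuba1a 20.1% in oligodendrocyte-like cells, Tuba1a led neuroblast-like cells with 66.7%, and Tuba1a also became the leading gene of astrocyte-like (30.9%), endothelial-like (40.9%) and precursor-like (59.2%) cells. Among the beta genes alone, none of which shares as much sequence, Tubb4a had 97.8 ± 0.866% in oligodendrocyte-like cells, Tubb5 56.0% and Tubb3 19.6% in neuroblast-like cells, Tubb2a 37.1% in astrocyte-like cells, and Tubb5 53.5% and Tubb4b 35.5% in endothelial-like cells. The summed beta genes exceeded the summed alpha genes by a ratio of 12.9 ± 2.76 in oligodendrocyte-like cells per kb of exon (10.1 to 18.6 over mice), against 1.08 to 2.29 for the other 7 classes. Per unshared kb the ratio was 3.77 ± 0.802, against 0.374 to 1.17, so oligodendrocyte-like cells stood highest on either scale.

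Shares were compared between 6 pairs of classes with an exact sign-flip permutation test over mice (two-sided; the smallest p it allows is 0.0078 with 8 mice and 0.031 with 6), and p was adjusted over all 60 tests. Of these, 39 passed at an adjusted p of 0.05, or 65.0% of the tests, and 40 at an unadjusted one. Between oligodendrocyte-like and precursor-like cells the share of Tubb4a was higher in 6 of 6 mice and the shares of Tubb2a, Tubb2b, Tubb5 and Tuba1a lower in 6 of 6 (exact permutation p = 0.0312, adjusted 0.0481 for each). Shares within a class sum to a fixed total, so a higher share of Tubb4a lowers the rest, and these results are not separate. Their p is the smallest that 6 mice allow, and its adjusted value depends on how many other tests passed. Pericyte-like cells had a share of Tubb4a 16.2 percentage points above that of endothelial-like cells (7 of 8 mice; exact permutation p = 0.0156, adjusted 0.0293), with 14.5 points less Tubb5 and 12.4 points less Tubb4b. With only classes of at least 5 cells per mouse, which leaves fewer mice, 8 tests passed. No mouse then had enough precursor-like cells (at most 3). Only control mice 1 and 3 and mimic mouse 2 had enough neuroblast-like cells. Tests of these classes were absent or had too few mice to pass, so the 8 and the 39 are not comparable.

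The levels were tested with edgeR's quasi-likelihood test on the summed counts of each mouse and class, with the mouse as a block, over 14135 genes, and an adjusted p of 0.05 as the threshold (Benjamini-Hochberg). The mice are the replicates. The p-values measure the spread left after differences between mice common to all classes are fitted, with an estimate shared over all classes. They do not measure the SD between mice given above. In neuroblast-like over astrocyte-like cells 3 of the 10 tubulins were higher and 1 was lower, where 2.96% of all genes were called higher and 9.13% lower. Tubb3 was higher by 11.83 ± 2.11 (log2 fold ± SE), Tubb5 by 3.56 ± 0.61 and Tuba1a by 2.66 ± 0.48, and Tuba4a changed by -11.01 ± 2.03 (edgeR adjusted p 0.000235, 4.13e-05, 8.00e-05 and 0.0002). All 10 genes passed the filter on low counts, some of them through 1 class. The 6 comparisons share classes and are not independent of each other.

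Against oligodendrocyte-like cells, neuroblast-like cells had 2 tubulins called higher and 2 lower (3.66% and 11.6% of all genes). Tubb2b was higher by 8.68 ± 1.98 and Tubb5 by 3.55 ± 0.61 (edgeR adjusted p 0.00146 and 3.12e-05), while Tubb4a was at -6.02 ± 1.26 and Tuba4a at -5.65 ± 1.70 (edgeR adjusted p 0.000545 and 0.0181). Tubb3 was at 3.09 and did not pass (edgeR adjusted p 0.166), although its level was higher in 8 of 8 mice. Tuba1a was at 0.58 (edgeR adjusted p 0.481) and Tubb2a at 3.09 (0.0866). With library totals in place of TMM scaling, which moved the median of all genes from -1.01 to -0.12, Tuba1a was at 1.71 ± 0.41 (edgeR adjusted p 0.00297), Tubb2a at 4.17 (0.0217) and Tubb3 at 4.34 (0.0499), all now called, and Tuba4a lost its call (0.0607). TMM called 518 genes higher and 1633 lower, and library totals 699 and 1189.

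Oligodendrocyte-like over precursor-like cells, a step along 1 lineage, had no tubulin called higher and 2 lower (8.57% of all genes higher, 2.66% lower; 6 precursor-like mice). At an unadjusted edgeR p under 0.05, 2 tubulins were higher and 3 lower, and DESeq2 called 2 higher, Tuba4a and Tubb6, and 4 lower. Tubb2a was at -4.44 ± 1.38 and Tubb2b at -7.67 ± 1.90 (edgeR adjusted p 0.0295 and 0.00762). Tubb4a was at 3.14 ± 1.27, higher in 6 of 6 mice, and missed the threshold (edgeR adjusted p 0.0996). It was called with no filter on low counts (3.28, edgeR adjusted p 2.45e-05) and with the wells mapped by title (3.15, edgeR adjusted p 0.0238). Under the other alternatives it was not called. The median of all genes was 1.48 under TMM and 0.73 under library totals, with 1212 genes higher and 376 lower against 787 and 459, and under library totals Tuba1a (-1.42, edgeR adjusted p 0.0352) and Tubb5 (-2.68, 0.00196) were called as well.

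Astrocyte-like over oligodendrocyte-like cells had 3 tubulins higher and 3 lower (6.64% and 6.69% of all genes). Tubb2a was higher by 4.69 ± 1.33, Tubb2b by 9.59 ± 2.05 and Tuba4a by 5.36 ± 1.60 (edgeR adjusted p 0.011, 0.000803 and 0.0181). Tubb4a was at -8.68 ± 1.41, Tubb3 at -8.74 ± 1.98 and Tuba1a at -2.08 ± 0.46 (edgeR adjusted p 1.63e-05, 0.00241 and 0.0013). Tubb5 was at -0.01, and at 0.38 under library totals, so its sign depends on the scaling and no direction is given.

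Endothelial-like over astrocyte-like cells had 1 tubulin higher and 3 lower (6.25% and 11.4% of all genes): Tubb5 at 1.96 ± 0.57, Tubb2b at -11.00 ± 2.23, Tubb4a at -6.10 ± 1.29 and Tuba4a at -6.03 ± 1.73 (edgeR adjusted p 0.0107, 0.000252, 0.000403 and 0.0104). Pericyte-like over endothelial-like cells, both of the vessel wall, had 2 higher and 1 lower (4.01% and 6.57%). Tubb4a was higher by 8.29 ± 1.40 in 7 of 8 mice and Tubb2b by 8.57 ± 2.13 in 6 of 8 (edgeR adjusted p 2.70e-05 and 0.0042), and Tuba4a was lower (edgeR adjusted p 0.00206), being at 0 in the pericyte-like cells of all mice and higher in endothelial-like cells in 3 of 8. Tubb2b was at 60.6 CPM in pericyte-like, 303 in astrocyte-like and 2.84 in endothelial-like cells, where 7 of 8 mice were at 0. The sizes of its folds of 8.57 and -11.00 therefore rest on few counts. Without the mouse as a block the former was 4.15. In neuroblast-like over astrocyte-like cells, library totals gave 576 genes higher and 1065 lower, against 418 and 1291 with TMM, and all 4 tubulin calls kept their signs.

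**Figure D3:**
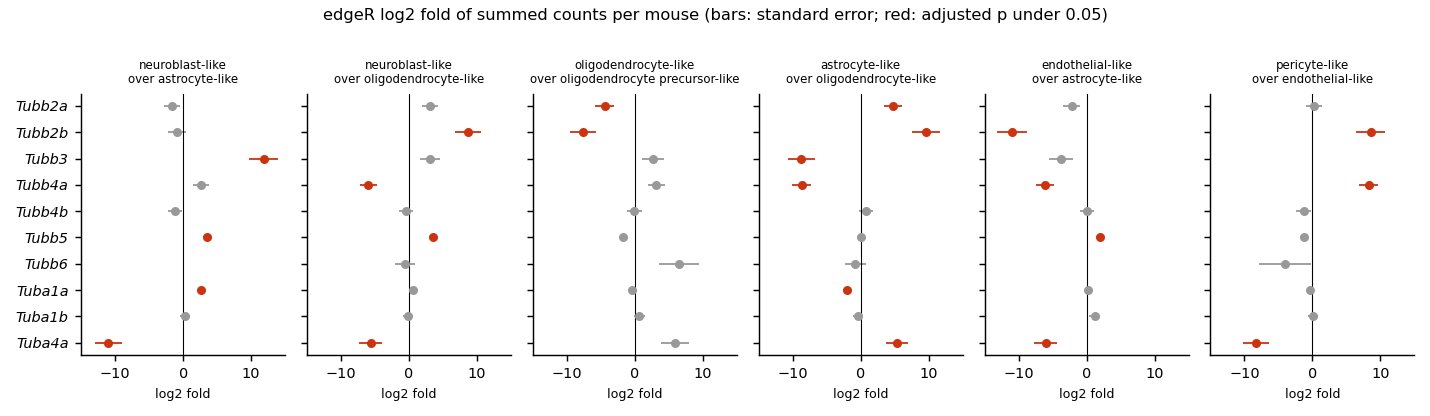
edgeR log2 fold (x axis) of each tubulin gene in 6 class comparisons, with the standard error as a bar and red points for an adjusted p under 0.05; points with a standard error above 5 are not drawn (Tubb6 in neuroblast-like and in endothelial-like over astrocyte-like cells, Tubb3 in pericyte-like over endothelial-like cells). Tubb4a lies far to the left wherever astrocyte-like or neuroblast-like cells are set over oligodendrocyte-like cells, and to the right for pericyte-like over endothelial-like cells.

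Other genes of the microtubule system, from lists grouped by function, were read in the same fits. None of the 20 folding genes (chaperonin, prefoldin and cofactors) and none of the 9 nucleation genes was called in any of the 6 comparisons by edgeR. Of all genes, 2.66% to 11.6% were called per direction and comparison, so lists of this size hold few calls at the background rate, and no list was tested against the rest. At an unadjusted edgeR p under 0.05 there were 0 to 2 folding genes and 0 to 1 nucleation genes per comparison, and DESeq2 called 0 to 2 and 0 to 1, Arl2, Tbca, Tbcc, Tubgcp6 and Tpx2. Neuroblast-like cells had Dcx, the doublecortin of migrating neurons, at 445 ± 193 CPM against 0.0182 in astrocyte-like cells (log2 fold 13.13), and 1 of the 19 stabilising genes was higher and 2 lower there, near the 2.96% and 9.13% of all genes. Of the 10 destabilising genes tested, 3 were higher and none lower, among them the stathmins Stmn3 (433 against 10.2 CPM, log2 fold 8.60) and Stmn4 (7.46). Of the 16 tested modification genes, 1 was higher and 1 lower. The higher one was Vash2, a vasohibin that removes the terminal tyrosine, at 131 ± 108 CPM against 0 in every astrocyte-like mouse. It was also at 0 in 2 of the 8 neuroblast-like mice. Its mean was at least 2297-fold higher against a floor of 3 counts over the class. Such bounds cover counting error only.

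Neuroblast-like and oligodendrocyte-like cells were compared next, where 3.66% of all genes were higher and 11.6% lower in neuroblast-like cells. Tppp, which bundles microtubules in oligodendrocytes, was at 956 CPM against 0.163 (log2 fold -14.61 for neuroblast-like over oligodendrocyte-like), and of the 19 stabilising genes 2 were higher in neuroblast-like cells and 6 lower. Ttll7, a polyglutamylase of beta tubulin, was at 606 against 26.4 CPM (-8.61), with 1 modification gene higher and 4 lower. Stmn4 was at 386 against 44.4 CPM (-4.24) and Stmn2 the other way (12.24), with 2 destabilising genes higher and 2 lower. Astrocyte-like cells were also far below oligodendrocyte-like cells in Ttll7 (-12.45), Tppp (-16.87) and Stmn4 (-11.70), and above them in Dclk1, a doublecortin relative (561 against 14.5 CPM, 4.69). In that comparison 2 stabilising genes were higher and 4 lower, and 4 destabilising, 3 modification and 1 motor gene were lower, beside 6.64% of all genes higher and 6.69% lower.

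Over precursor-like cells, oligodendrocyte-like cells had 3 stabilising genes higher and 2 lower, 3 destabilising, 1 plus-end, 1 modification and 4 motor genes higher and none of these lower. Of all genes 8.57% were higher and 2.66% lower, with a median log2 fold of 1.48, so the 1 of 16 modification genes is near the background. Tppp3 was at 502 CPM against 0 (at least 2019-fold higher against the floor of 3 counts), Stmn1 at 348 against 3.56 (9.04), Ttll7 at 5.93 on the log2 scale, and Dcx at -8.88 and Map2 at -3.14. Endothelial-like cells had 5 of 15 motor genes lower than astrocyte-like cells, Kif1a among them at 0.0349 against 419 CPM (-12.65), 5 of 19 stabilising genes lower (Dclk1, -13.60), and 1 modification gene higher (Ttll7, 8.71), beside 6.25% of all genes higher and 11.4% lower. Pericyte-like over endothelial-like cells had 3 plus-end and 3 stabilising genes higher and none lower, for example Clip3 at 10.29 and Map2 at 6.70. In that comparison 2 destabilising genes were lower, beside 4.01% of all genes higher and 6.57% lower. These were Stmn1 (-6.31) and Stmn2 (at least 1307-fold lower against the floor of 3 counts). In endothelial-like cells Stmn2 was at 89.8 ± 121 CPM, and at 0 in 2 of the 8 mice. The median log2 fold of the 10 tubulins lay between -1.05 and 0.29 in the 6 comparisons, beside medians of -1.01 to 1.48 for all genes. Of the 10 other tubulin genes, 5 passed the filter, and Tuba1c was higher in neuroblast-like (5.54, edgeR adjusted p 0.0322) and endothelial-like cells (7.64, 0.00254) than in astrocyte-like cells.

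Within the precursor-like class, Tubb4a split with the stage markers. In the 12 cells with at least 50 CPM of Pdgfra, the receptor that defines precursors, Tubb4a ran from 0 to 2070 CPM with a median of 685, and Enpp6, a marker of newly forming oligodendrocytes, was at 0. In the other 6 cells Tubb4a ran from 952 to 25261 CPM with a median of 13178 and Enpp6 from 1359 to 8090. Tuba1a had medians of 1655 and 5747 CPM in the 2 sets. The first set held 7 control and 5 mimic cells, the second 1 control and 5 mimic cells. Without the 6 cells the share of Tubb4a in the class was 18.2 ± 8.91%. Tubb2a then lost its call against oligodendrocyte-like cells (-3.79, edgeR adjusted p 0.152). This exclusion was tried after the data were seen. Only control mice 1 and 5 and mimic mouse 6 still had at least 2 precursor-like cells. Both values therefore rest on fewer mice, and the lost call cannot be assigned to the cells left out.

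Tubb4a also appeared in cells outside the oligodendrocyte lineage, and the plot against Mbp, the myelin basic protein gene, shows these cells 1 by 1. In the pericyte-like class 28 of 70 cells, from 7 mice, had at least 50 CPM of Tubb4a (lowest 55.9, median 917, highest 2591), yet their Mbp was at most 5.24 CPM. The sum of the 10 oligodendrocyte markers in these 28 cells had a median of 3.37 CPM and a highest value of 580, with 1 of the 10 markers reaching 50 CPM in any cell and Ermn and Aspa at 0 in all; in the other 42 cells the median was 2.11 and the highest 49.5. The part of RNA from other cells in these values was not tested. In neuroblast-like cells 18 of 38 had Tubb4a (186, 1144 and 5616 CPM) with a marker sum of 1.32 to 674 (median 7.45, against 3.76 without), and in astrocyte-like cells 10 of 95 (70.6, 596 and 2320 CPM) with a median marker sum of 10.4 against 30.6. The highest marker sum was 1168 CPM in those 10 astrocyte-like cells, where 3 markers reached 50 CPM and 1 cell had 3 such markers, and 2006 CPM in the other 85.

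**Figure D4:**
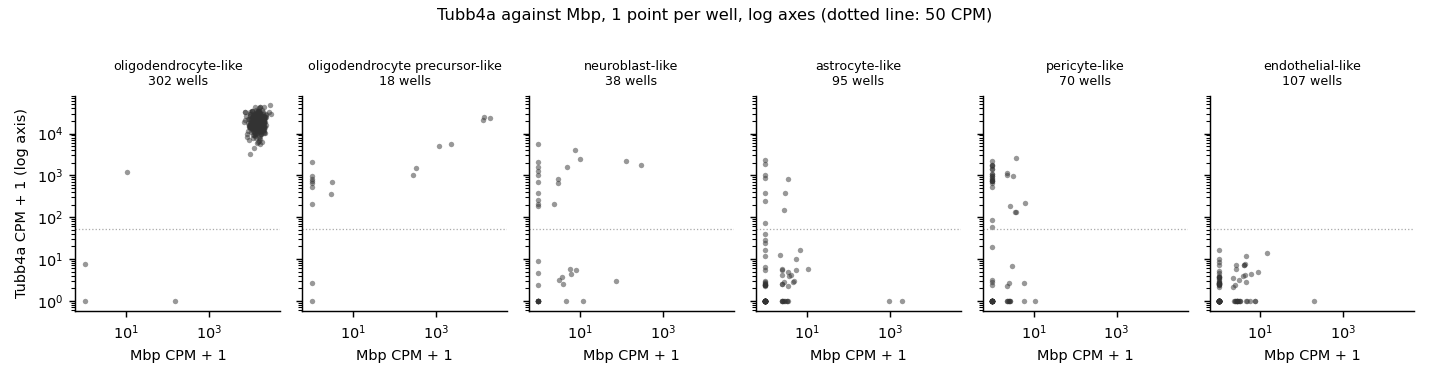
Tubb4a against Mbp in single cells (CPM + 1 on both log axes, 1 point per cell, dotted line at 50 CPM) by class. Pericyte-like cells above the dotted line have at most 5.24 CPM of Mbp, whereas oligodendrocyte-like cells are high in both genes.

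Among oligodendrocyte-like cells Tubb4a ran from 0 to 46973 CPM, with quartiles of 13387, 18550 and 24382 and 3 cells under 1000. The 4 clusters of the class had medians of 16276 to 19152 CPM. Across the cells of a mouse, Tubb4a and Tuba1a had a Spearman rho of 0.42 to 0.65 (median 0.53) in the 8 mice. The other 8 tubulins had median rho of 0.04 to 0.31 with Tubb4a, and 7 of them, Tubb4b being the exception, were below 0 in at least 1 mouse, for example Tuba1b from -0.19 to 0.54. Both values of a cell share its library and total. A smaller set of 41 cells, from 7 mice, had at least 50 CPM of Tubb3 (126, 373 and 1370). Their summed oligodendrocyte markers ran from 65000 to 118330 CPM, Dcx was at 0, and 9 of 11 neuroblast markers and 4 of 7 mature neuron markers were at 0 in all 41 cells. The summed neuroblast markers had a median of 141 CPM and a highest value of 501, with 1 marker reaching 50 CPM in any cell, against 96.9 and 2273 in the other 261 cells. The summed mature neuron markers had a median of 0 and a highest value of 993 CPM, with 3 of the 7 reaching 50 CPM in any cell, against 0 and 552 in the others. The part of RNA from other cells in the Tubb3 of these cells was not tested. Tubb5 had a median of 207 CPM in them and 1.31 in the other 261. Mimic mouse 6 gave 12 of these cells out of 31 and control mouse 7 none out of 22.

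In neuroblast-like cells, pooled over mice, the isotype medians differed with stage markers as well. The 6 cells with the proliferation gene Mki67 had medians of 586 CPM Tubb4b, 390 Tuba1b, 5444 Tubb5, 387 Tubb3, 0 Tubb2a and 1894 Tuba1a, against 0, 59.8, 3941, 1115, 161 and 4248 in the other 32. The 21 cells with Calb2, the calretinin gene of immature granule neurons, had medians of 1255 CPM Tubb3, 320 Tubb2a and 4263 Tuba1a, against 544, 0 and 2312 in the other 17. Calb2 was itself a marker used to name this class, and these sets are described without a test. Control mice 1 and 3 gave 9 each of the 38 cells, so a few mice may carry these differences. The 2 astrocyte-like clusters had Tubb2a medians of 180 and 339 CPM and Tubb2b medians of 416 and 137.

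For 5 tubulins the genes most alike in pattern were found by Pearson r of the mean log2(CPM + 1) over 55 class-by-mouse means, among 11890 genes. The points share classes, mice and depth, so r in part repeats which classes are high. Calb2, Mbp and Aqp4, named below, were also among the markers used to name the classes. For Tubb3 the genes most alike were Dcc (0.866), Dpysl5 (0.860), Calb2 (0.854), Asxl3 and Cd1d1. Tubb4a was most like Edil3 (0.795), Map6d1, Tyro3, Fa2h and Mbp (0.758). Tubb2b was most like Gpm6a (0.825), Gm3764, Ncan, Gria2 and Ppp2r2b, and Tuba4a most like Ppp1r1b (0.892), Mlc1 (0.890), Aqp4, Prodh and Wwc1. For Tubb6 the highest r was 0.562, with Nov, which rests on the few cells with counts.

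No tubulin level differed detectably between mimic and control mice as the description map assigns the wells. The title map gives the same treatment for only 384 of 768 wells, so the comparison rests on the choice of map. In all cells 8142 genes were tested, and in oligodendrocyte-like, astrocyte-like, endothelial-like and pericyte-like cells 7402, 7410, 5971 and 5470. edgeR called 0 genes in each set (0% of the genes tested), with 357, 214, 108, 121 and 39 genes at an unadjusted p under 0.05, and DESeq2 called 17, 3, 16, 37 and 20. Of the tubulins, 9, 6, 8, 6 and 7 were tested in these sets, and 0 had an unadjusted edgeR p under 0.05. In each set the share of all genes at such a p was itself below 0.05, so 0 among so few tubulins says little. In oligodendrocyte-like cells Tubb4a was at 19451 ± 2766 CPM with the mimic and 19845 ± 2845 with the control oligonucleotide (n = 4 mice each), a log2 fold of -0.08 ± 0.12. Tuba1a was at 1278 ± 185 and 1161 ± 163 CPM (0.06 ± 0.14), Tubb5 at 197 ± 55.3 and 149 ± 20.7 (0.37 ± 0.23) and Tubb3 at 104 ± 106 and 27.2 ± 20.8 (2.03 ± 1.29). The mice of the 2 groups overlapped for each of these 4 genes. With no filter on low counts, edgeR called Tubb3 in oligodendrocyte-like cells (2.02, adjusted p 0.00311), where mimic mouse 6 had 259 CPM and the other 7 mice 0.0465 to 85.6.

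**Figure D5:**
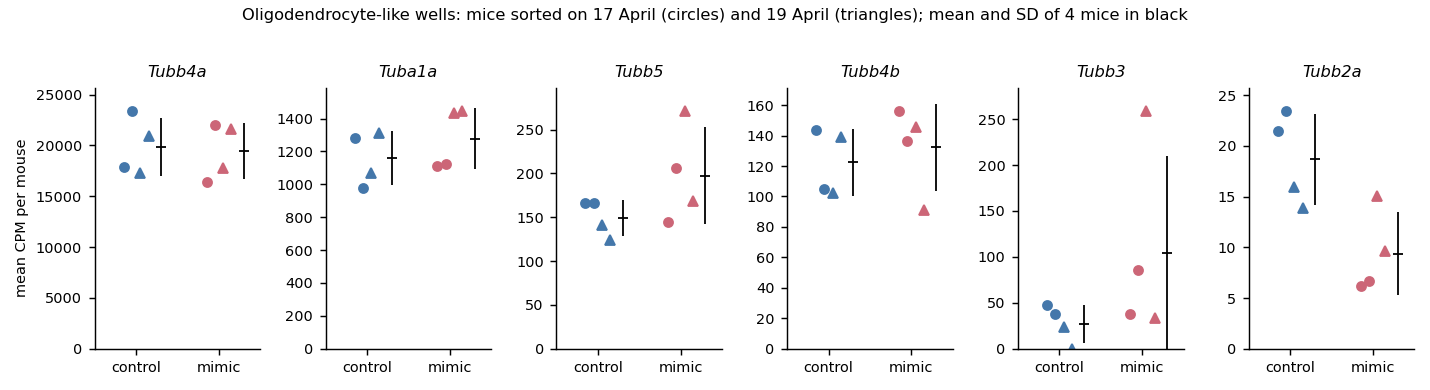
Mean CPM per mouse (y axis) of tubulin genes in oligodendrocyte-like cells of control and mimic mice, circles for 17 April and triangles for 19 April, with the mean and SD of 4 mice in black. The 2 groups overlap in each gene drawn, and mimic mouse 6 is the highest for Tubb3.

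The neuroblast-like cells, 24 from control mice and 14 from mimic mice, were too few for a fit by edgeR and were compared by an exact permutation test over 4 against 4 mice (two-sided, 70 splits). Tubb3 was at 1291 ± 488 CPM with the mimic and 998 ± 259 with the control (exact permutation p = 0.343), Tubb5 at 5066 ± 1420 and 4167 ± 446 (0.371) and Tuba1a at 4656 ± 1183 and 3460 ± 557 (0.2). The lowest p of the 10 tubulins was 0.171, for Tubb4b at 322 ± 93.7 and 170 ± 147 CPM (adjusted 0.914). None of the 60 isotype shares differed between treatments after adjustment, the lowest exact permutation p being 0.0571, for Tubb2a at 0.0608 ± 0.0283% with the mimic and 0.120 ± 0.0272% with the control in oligodendrocyte-like cells (adjusted 1).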

How the data were processed

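The authors deposited a table of raw counts per gene and well; per the submitters' processing notes the build was mm10 and the tools used included featureCounts 1.5.1, Subread, STAR, Seurat 2.3.1 and FastQC, with no settings given. The handling of reads shared by several genes and the annotation are not stated. From these counts, CPM per well, means per mouse and class, and sums per mouse and class (at least 2 cells) were computed. Cells were clustered with scanpy 1.11.5 (2000 variable genes, 20 components, Leiden resolution 1) without the microtubule genes and named from marker genes. edgeR 4.0.16 (TMM, filterByExpr, quasi-likelihood) tested the sums, with the mouse as a block between classes and the sort date as a covariate between treatments, in sets with at least 5 cells per mouse and 3 mice per treatment (3 control mice for endothelial-like cells). DESeq2 1.42.0 was an alternative. Every tubulin was named; of each list up to 2 called genes per direction with the largest fold, some left out for length. The scripts were tested on simulated data. The members and lists were chosen with earlier results of these data known. The end sequences of 2 alpha tubulin genes and 1 marker gene's own levels are not reported here.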

Additional observations from a re-analysis of the deposited data

Results flagged for a closer look

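In 6 of 50 groups of mice examined, 1 mouse lay apart from the others by a gap test that chance alone meets in about 1 group in 20. Tubb3 in oligodendrocyte-like cells was at 258.5 CPM in mimic mouse 6, with 0.0465 to 85.6 in the other 7 mice. Mimic mouse 4 had 2371 CPM of Tubb4a in its neuroblast-like cells (2.34 to 1023 elsewhere), of which it gave 3. In its 5 pericyte-like cells Tubb4a was at 1234 CPM (0.699 to 528 in the others) and Tuba1b at 65.1 CPM, below the 156 to 201 of the others. Mimic mouse 8 had 626.9 CPM of Tubb4b and 116.2 CPM of Tuba1b in its 2 precursor-like cells, against 110 to 276 and 37.7 to 65.4.

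Tuba1a differed in direction between sort dates. Over all cells the mimic mean minus the control mean was -180.5 CPM on 17 April and 217.5 CPM on 19 April, and in pericyte-like cells it was -194.0 and 58.6 CPM. Every mimic mouse lay on one side of every control mouse of its day, with 2 mice per treatment and day, and the difference between days was not tested. These splits were found by scanning the tubulins over the cell sets compared between treatments, and so few mice can split this way by chance. The all-cells values also mix classes. On 17 April control mice 1 and 3 had 9 neuroblast-like cells each, and mimic mice 2 and 4 had 5 and 3. The part of class composition in these values was not tested.

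The 16 wells with over 6000 genes were in no comparison. Tubb4a averaged 12699 CPM in them (7860 to 15881, median 13108).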

How the results depend on the processing

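The 23 tubulin folds called between classes were recomputed under up to 18 alternatives. Of the folds, 16 kept their call under every alternative that applied, 7 lost it under at least 1, and 0 changed sign. The exclusion of cells low in Pdgfra covered only the precursor-like comparison, which sums of at least 5 cells left out. DESeq2 folds too large to be estimated stably were not compared. Calls were lost for Tuba4a (neuroblast-like and astrocyte-like over oligodendrocyte-like, endothelial-like over astrocyte-like), Tuba1a (astrocyte-like over oligodendrocyte-like), Tubb2a (oligodendrocyte-like over precursor-like), Tubb2b (pericyte-like over endothelial-like) and Tubb5 (endothelial-like over astrocyte-like). With no filter on low counts the edgeR adjusted p was 0.0901 for Tuba1a and 0.14 for Tubb5. Without control mouse 1 that of Tuba4a was 0.0684 and 0.0512 in the comparisons with astrocyte-like cells. Without the mouse as a block, that of Tubb2b was 0.0646.

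For oligodendrocyte-like over precursor-like cells, 2 tubulins were called, and 6 with DESeq2, 4 with library totals, 4 without the mouse block, 5 with the wells mapped by title, 1 without the cells low in Pdgfra, and 1 to 3 without 1 mouse (1 without mouse 1, 2 or 4). Library totals and the exclusion of cells low in Pdgfra were chosen after the data were seen. That exclusion also left fewer mice with enough precursor-like cells. Tubb4a was called with the title map and with no filter on low counts. Of the 60 isotype shares, 39 differed between classes and 8 with at least 5 cells per mouse. Under that cut, tests of precursor-like and neuroblast-like cells were absent or had too few mice to pass. Between treatments, 0 tubulins were called in oligodendrocyte-like cells and 1 with no filter. There the fold of Tubb4a (log2 -0.08) changed sign with the title map (0.0052) and ran from -0.15 to 0.0057 without 1 mouse, and that of Tuba1a (0.06) ran from -0.015 to 0.19; neither was called. The cause of these changes was not tested. TMM and library totals moved the median of all genes by over 0.1 in 5 of the 6 class comparisons, for example from -0.54 to -0.01 for neuroblast-like over astrocyte-like cells and from -0.50 to -0.19 for astrocyte-like over oligodendrocyte-like cells. Mimic and control mice could not be paired, because replicate numbers are mouse numbers and no number occurs in both treatments. Classes of 13 to 38 cells limit what could be detected.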
